A study of Mus musculus with 25 samples.

Results

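The comparison described here sets 2.1 mM hypochlorous acid (HOCl) against 0.35 mM HOCl in RAW 264.7 cells, a mouse macrophage-like line that grew out of a tumour induced by Abelson leukaemia virus. Its members were the 3 arrays titled with 2.1 mM and the 3 titled with 0.35 mM, 6 of the 25 arrays of the series, and the comparison was made over all 45037 probe sets other than the controls. The cells had stood in medium with HOCl for 6 h at near-confluent density, and total RNA from each replicate was hybridised to its own Affymetrix Mouse Genome 430 2.0 array. The remaining arrays were 4 at 0 mM and 3 each at 0.14, 0.7, 1.4, 2.8 and 3.5 mM. No genotype, transgene or second agent separated the groups, and all came from the same transformed line, grown with serum in the medium. The labels call the replicates biological but do not say whether they came from separate cultures or days, so the p-values measure the spread between these arrays, part of which may be technical.

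HOCl is the oxidant that myeloperoxidase of neutrophils makes from hydrogen peroxide and chloride, and it reacts fastest with the sulphur of cysteine and methionine. Cells meet such oxidants through the transcription factor NRF2, which its cysteine-rich inhibitor KEAP1 releases and which drives genes for glutathione, NADPH and haem breakdown. Misfolded proteins call on heat shock factor 1 and on the proteasome. Macrophages also carry the NF-kB and interferon pathways, through which danger signals raise cytokines, chemokines and antiviral proteins. A dose comparison between 0.35 and 2.1 mM addresses what the higher oxidant dose adds to cells in which inflammatory genes are already high.

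Values below are log2 signals as deposited, on a scale where each array's median is 0, so a difference of 1 is a doubling of signal. Arrays of one dose are given in the order of their replicate numbers. A probe set was called where the Benjamini-Hochberg adjusted p of limma's moderated test, over all probe sets, was under 0.05, and a gene was represented by its brightest probe set that maps to 1 symbol, which gave 18193 genes. Levels are not compared between genes. Since these are bulk samples, fewer cells of a type and less RNA per cell cannot be told apart.

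The 6 arrays did not lie in 2 even groups. Over all probe sets, the 2.1 mM arrays correlated with each other at 0.995 to 0.997. Of the 0.35 mM arrays, replicate 2 stood apart, at 0.983 and 0.967 with its own dose and 0.957 to 0.965 with 2.1 mM. Replicate 3 correlated with all 2.1 mM arrays at 0.991, the same as with replicate 1 of its own dose. The median SD over probe sets was 0.190 at 0.35 mM and 0.106 at 2.1 mM (n = 3 each). The 5′ probe sets of the Bacillus poly-A control RNAs, which are added to a sample before labelling, also divided the arrays. Their mean was 1.01, 0.83 and 1.75 at 0.35 mM and 2.21, 2.39 and 1.86 at 2.1 mM, against 0.74 to 1.12 over the 0 mM arrays, so only replicate 3 of 0.35 mM had a high level as the 2.1 mM arrays did. Over the other doses the level was low on all 0.14 mM arrays, split at 0.7 mM and high on all arrays of 1.4, 2.8 and 3.5 mM. Dose and this level are thus largely confounded. Macrophage genes were high at both doses, with Csf1r, the receptor for macrophage colony-stimulating factor, at 7.41, 7.20 and 7.60 and then 7.55, 7.50 and 7.45. Of 30 measured markers of other cell types, limma called 0, with 2 higher and 2 lower at an unadjusted p under 0.05 (10.1% and 8.97% of all genes were), and their mean level was 0.05 at 0.35 mM and -0.02 at 2.1 mM. With no overlap between the arrays of the doses, 0 of them were higher and 6 lower (20%), against 16.1% and 11.4% of all genes. S100a8, a neutrophil marker that activated macrophages also make, stood at 4.10, 4.18 and 3.90 at 0.35 mM and at 3.75, 3.59 and 3.43 at 2.1 mM.

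Between the doses 137 probe sets (0.304% of 45037) were called, 117 of them higher at 2.1 mM (0.26%) and 20 lower (0.0444%). By size, the called genes with the largest rises were Smyd4, Srxn1, Cbr3, Tubb2a and Slc48a1, and those with the largest falls were Fcgr1, Ltb, Pdgfb, D17H6S56E-5 and Cxcl11. Changes of at least 2-fold numbered 56 higher and 11 lower (0.149% together). At an unadjusted p under 0.05 there were 4990 probe sets higher (11.1%) and 3311 lower (7.35%). By the brightest probe set, 73 genes were called (0.401%), of which 61 rose (0.335%) and 12 fell (0.066%). The median difference of all genes was 0.0005 on the log2 scale. In all 137 called probe sets the arrays of the doses did not overlap, but 16.2% of all probe sets were higher and 9.12% lower without overlap, and over genes the shares were 16.1% and 11.4%, so the lack of overlap alone is common here. A fit of the 6 arrays alone called 311 probe sets higher (0.691%) and 221 lower (0.491%). Replicate 2 was the lowest of the 0.35 mM arrays in 101 of the 117 probe sets called higher (86.3%), against 49.6% of all probe sets. In the fit over all doses the number of calls rested on single arrays: it was 15 without replicate 1 and 5 without replicate 2 of 0.35 mM, 3514 without replicate 3 of 0.35 mM, and 4, 5 and 15 without replicates 1, 2 and 3 of 2.1 mM. Every one of the 137 differences kept its sign in each of these fits. With no overlap between the doses, leaving out an array could not reverse a sign. With the poly-A control level as a term 6 were called, and among arrays of the high level alone, which left 1 array of 0.35 mM, limma called 0, with 1256 at an unadjusted p under 0.05.

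**Figure D1:**
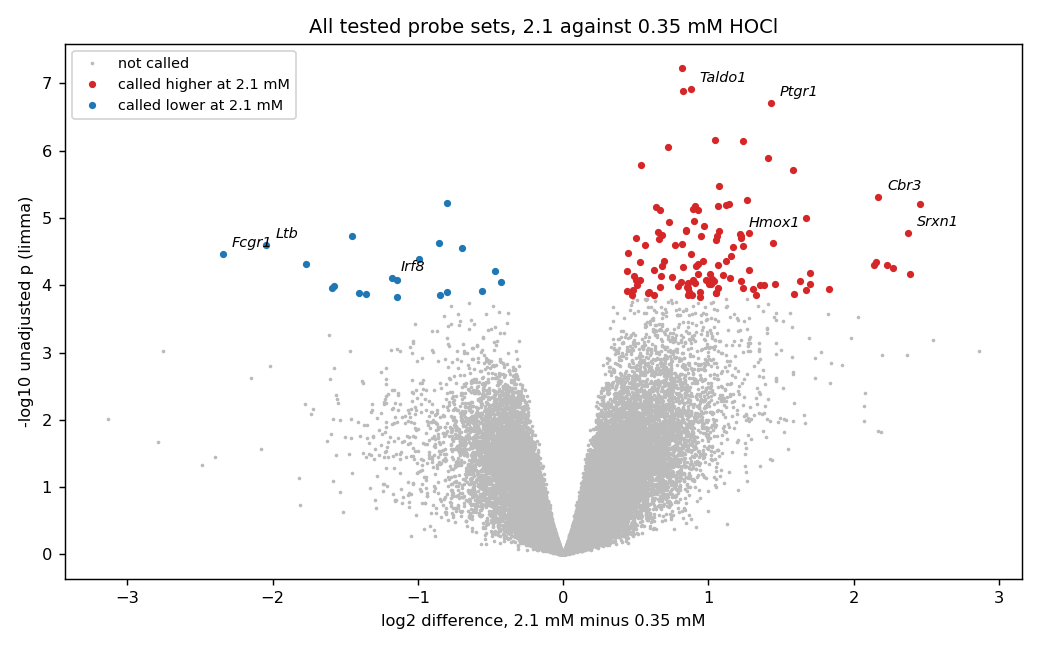
Log2 difference (2.1 mM minus 0.35 mM, x axis) against -log10 of the unadjusted limma p (y axis) for all 45037 probe sets. The 117 probe sets called higher (red) outnumber the 20 called lower (blue), and 8 named genes are marked at their brightest probe set.

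Sulfiredoxin (Srxn1), which repairs over-oxidised peroxiredoxins, had one of the largest rises. Its level was 4.28, 3.86 and 3.82 at 0.35 mM and 6.40, 6.34 and 6.34 at 2.1 mM, against 1.78 to 2.70 over the 4 arrays without HOCl. The 3 groups did not overlap. Srxn1 rose 5.18-fold from the lower to the higher dose (log2 2.37, SE 0.42, adjusted p = 0.0215), and 3 of its 4 probe sets were called. Against replicate 3 of 0.35 mM alone, the one array with a high poly-A control level, the difference was 2.54. The 250 bases before its transcription start (RefSeq, GRCm38.p6, chr2:152105274-152105523, plus strand) are shown because they hold the AP-1 core TGANTCA more than once, a core that lies inside many binding sites of NRF2. Capitals mark both matches, whose first bases lie at -102 and -45 from the start.
Srxn1: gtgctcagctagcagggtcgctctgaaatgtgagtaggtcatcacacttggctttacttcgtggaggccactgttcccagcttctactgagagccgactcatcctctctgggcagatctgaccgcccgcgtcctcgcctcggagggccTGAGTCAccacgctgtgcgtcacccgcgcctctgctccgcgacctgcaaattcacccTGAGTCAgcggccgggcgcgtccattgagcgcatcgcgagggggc
TGANTCA was found on either strand in 7.82% of 27025 genes with such a window. It was in 2 of 44 windows of genes that rose (4.55%) and in 5 of 45 of the 3 antioxidant groups (11.1%). Interferon-stimulated genes, a group lower at 2.1 mM, held it in 6 of 25 windows (24%).

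Of 20 measured genes for NADPH, quinone and iron metabolism linked to NRF2, 3 rose (Cbr3, Hmox1 and Taldo1) and 0 fell, and the median difference was 0.61. At 0.35 mM replicate 2 had the lowest group mean, 0.25 above the 0 mM mean, against 0.51 and 0.36 in replicates 1 and 3. Cbr3, a carbonyl reductase, stood at 2.06, 1.16 and 2.14 at 0.35 mM and at 4.06, 3.95 and 3.85 at 2.1 mM. The 0.35 mM arrays lay within or below the range without HOCl (1.61 to 2.27), and Cbr3 rose 4.49-fold (SE of the log2 difference 0.35, adjusted p = 0.0151). Hmox1, haem oxygenase 1, followed another course. It was already at 6.59, 6.34 and 6.12 at 0.35 mM, well above 3.42 to 4.38 without HOCl, and reached 7.68, 7.47 and 7.55 at 2.1 mM. The rise between the doses was 2.33-fold (log2 1.22, SE 0.22, adjusted p = 0.0215). Taldo1, transaldolase of the pentose phosphate pathway that yields NADPH, had the smaller change but the tighter arrays, with 5.65, 5.52 and 5.54 against 6.50, 6.45 and 6.40. All its 0.35 mM arrays were below the lowest array without HOCl (5.75), and all its 2.1 mM arrays were above the highest (6.01). Taldo1 rose 1.84-fold (log2 0.88, SE 0.11, adjusted p = 0.00194) and was called in 17 of 19 alternatives.

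Other members of that group were higher without passing the test. Nqo1, a quinone reductase, stood at 0.04, -0.62 and -0.09 at 0.35 mM and 1.66, 1.48 and 1.67 at 2.1 mM, a 3.55-fold difference (adjusted p = 0.0612). Its 0.35 mM arrays overlapped those without HOCl, which ran from -0.44 to -0.08. Slc40a1, the iron exporter ferroportin, differed by 1.50 (adjusted p = 0.0903), Bach1, a haem-binding repressor of Hmox1, by 1.15 (adjusted p = 0.124), and Me1, malic enzyme, by 0.85 (adjusted p = 0.11). In 14 of the 20 genes every 2.1 mM array was above every 0.35 mM array and in 1 below, against 16.1% and 11.4% of all genes. Keap1 had the lowest difference of the group, at -0.39. A fit of the 6 arrays alone called 9 of the 20 higher, where 0.912% of all genes were called higher.

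Among the glutathione genes 1 rose. Gss, glutathione synthetase, stood at 2.08, 2.12 and 2.43 at 0.35 mM and 2.82, 2.97 and 2.84 at 2.1 mM. These did not overlap, and Gss rose 1.59-fold (adjusted p = 0.0151), the only 1 of 18 measured cystine and glutathione genes to be called, though its second probe set differed by 0.33 and was not called. Gclm, the modifier subunit of the rate-limiting enzyme of glutathione synthesis, was at 5.61, 5.43 and 5.25 and then 7.07, 6.98 and 6.96, against 2.81 to 3.79 without HOCl. It thus stood higher at each step, with a 2.98-fold difference between the 2 HOCl doses (adjusted p = 0.0734). Its catalytic partner Gclc was at 3.14, 2.55 and 3.45 at 0.35 mM, which reached from below the 0 mM range (3.36 to 3.88) into it, and at 4.47, 4.26 and 4.23 at 2.1 mM (difference 1.27, adjusted p = 0.0903). Slc7a11, the cystine importer, stood 3.69 above untreated cells at 0.35 mM and 5.19 above them at 2.1 mM, comparisons that share the 0 mM arrays, and differed by 1.50 between the doses (adjusted p = 0.167), or by 0.89 with the poly-A control level as a term. The median of the 18 genes was 0.36, and 9 were higher and 2 lower without overlap, against 16.1% and 11.4% of all genes, so the lower share of 11.1% was near that of all genes.

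The promoter window of Gclm (RefSeq, GRCm38.p6, chr3:122245307-122245556, plus strand) is shown as a contrast to that of Srxn1, since it holds the antioxidant response element core TGACNNNGC, here in capitals and read on the other strand, first base at -134 from the start.
Gclm: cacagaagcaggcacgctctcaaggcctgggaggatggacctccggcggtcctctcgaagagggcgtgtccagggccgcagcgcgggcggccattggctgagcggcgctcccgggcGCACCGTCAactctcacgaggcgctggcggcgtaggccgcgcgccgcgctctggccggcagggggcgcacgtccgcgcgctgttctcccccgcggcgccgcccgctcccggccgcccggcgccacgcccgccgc
On either strand TGACNNNGC was in the window of 11 of 45 genes of the 3 antioxidant groups (24.4%). It was in 3 of 44 genes that rose (6.82%) and in 11.5% of all genes. Interferon-stimulated genes, a group lower at the higher dose, held it in 6 of 25 windows (24%). Heat shock and chaperone genes held it in 5 of 26 (19.2%) and proteasome genes in 4 of 26 (15.4%). The share in the antioxidant groups was thus not particular to them. A sequence can match both this core and TGANTCA. Windows were found for 45 of 50 antioxidant genes and for 44 of the 61 genes that rose.

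Of 12 measured thioredoxin and peroxiredoxin genes Srxn1 alone was called. Txnrd1, thioredoxin reductase, stood at 6.08, 5.83 and 5.99 and then 6.59, 6.53 and 6.54, without overlap, a 1.51-fold difference (adjusted p = 0.185). The median of the 12 was 0.22, and 9 were higher and 0 lower without overlap, against 16.1% and 11.4% of all genes. Of 8 metallothionein and zinc genes 0 were called, with 3 higher at an unadjusted p under 0.05 (10.1% of all genes were), and the abundant metal-binding proteins Mt1 and Mt2 differed by 0.12 and -0.23.

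The genes that rose most included many outside the fixed groups. Smyd4, a SET and MYND domain protein, stood at 2.23, 1.38 and 2.49 and then 4.52, 4.43 and 4.32. The doses were far apart, by 5.24-fold (log2 2.39, SE 0.48, adjusted p = 0.0394), and both of its probe sets were called. Tubb2a, a beta-tubulin, was at 2.01, 0.89 and 2.22 and then 3.95, 3.79 and 3.85, a 4.45-fold rise (adjusted p = 0.0333), but its other probe set differed by 0.27 and was not called. In Smyd4 and Tubb2a, as in Cbr3, replicate 2 was the lowest 0.35 mM array by a wide margin. Without it the differences were 2.06, 1.75 and 1.85, and none of the 3 was called in the fit over all doses.

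Ptgr1, prostaglandin reductase 1, which reduces reactive aldehydes and leukotriene B4, stood at 3.32, 3.26 and 3.11 at 0.35 mM and at 4.66, 4.65 and 4.67 at 2.1 mM. The 0.35 mM arrays overlapped the range without HOCl (3.18 to 3.61), and the rise to 2.1 mM was 2.69-fold (log2 1.43, SE 0.18, adjusted p = 0.00222). Ptgr1 was called in 18 of 19 alternatives, the exception being the fit of high poly-A arrays alone. Map2k3os, a non-coding RNA next to Map2k3, Sbds, a ribosome maturation factor, and Creg1, a secreted lysosomal glycoprotein, were singled out with their values known because they too stayed called in several fits. Map2k3os rose from 1.45, 1.56 and 1.40 to 2.32, 2.31 and 2.25, and Sbds from 3.38, 3.28 and 3.40 to 4.24, 4.18 and 4.11. Both rose 1.77-fold with an adjusted p of 0.00194, and they were called in 17 and 16 of 19 alternatives. Creg1 rose 1.88-fold (adjusted p = 0.0151, 1 of 2 probe sets called) and was, with Ptgr1, Taldo1 and Map2k3os, among the 4 of these calls that remained with the poly-A control level as a term.

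Slc48a1, which carries haem out of the lysosome, stood at 2.65, 2.42 and 2.41 and then 4.38, 4.37 and 4.22, a 3.56-fold rise (adjusted p = 0.0448) in 1 of its 2 probe sets, the other differing by 1.28. The arrays without HOCl were split for this gene, at 2.43 and 2.34 in replicates 1 and 3 and 3.59 and 3.56 in replicates 2 and 4. Other genes had this split too, such as Atf3, at 2.98 and 2.70 against 5.25 and 5.07. Gabarapl1, which coats growing autophagosomes, was at 3.63, 3.25 and 3.32 and then 5.09, 5.10 and 5.09, a 3.24-fold rise (adjusted p = 0.0384) in which both of its probe sets were called. It was the 1 called gene of 25 measured autophagy and lysosome genes, whose median difference was 0.17 and of which 9 were higher and 0 lower without overlap, against 16.1% and 11.4% of all genes. Sqstm1, an autophagy receptor, was high at both doses, 7.28, 7.17 and 7.04 and then 7.89, 7.84 and 7.87 (adjusted p = 0.259).

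The other large rises ranged from 2.33-fold to 3.18-fold. Dnmt3l, an inactive partner of DNA methyltransferases, went from 1.04, 0.76 and 0.83 to 2.81, 2.46 and 2.36, by 3.18-fold. Ptpn14, a tyrosine phosphatase, went from 1.11, 0.69 and 0.99 to 2.48, 2.53 and 2.52, by 3.00-fold (adjusted p = 0.00881), though only 1 of its 3 probe sets was called and the lowest of them differed by -0.11. Cdcp1, a membrane glycoprotein, rose 2.74-fold, the predicted gene Gm15471 2.73-fold and the predicted gene Gm17586 2.33-fold. Impact, which restrains the kinase GCN2, rose 2.43-fold, Sik2, a salt-inducible kinase, 2.56-fold, and the scaffold gene Grasp 2.51-fold. Each of these 3 genes was called in 1 of its 3 probe sets, and the lowest of them differed by 0.35 for Impact, 0.58 for Sik2 and -0.22 for Grasp. The 0.35 mM arrays of Grasp (0.42, -0.10 and 0.97) lay lower than most of those without HOCl (0.89 to 1.49), while its 2.1 mM arrays (1.70, 1.79 and 1.78) lay above them. Of all 30 called genes that the naming rule picked, Ptgr1 and Taldo1 were the 2 still called without replicate 2 of 0.35 mM in the fit over all doses, and Cbr3, Ptgr1, Ptpn14 and Taldo1 the 4 still called without its replicate 1.

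**Figure D2:**
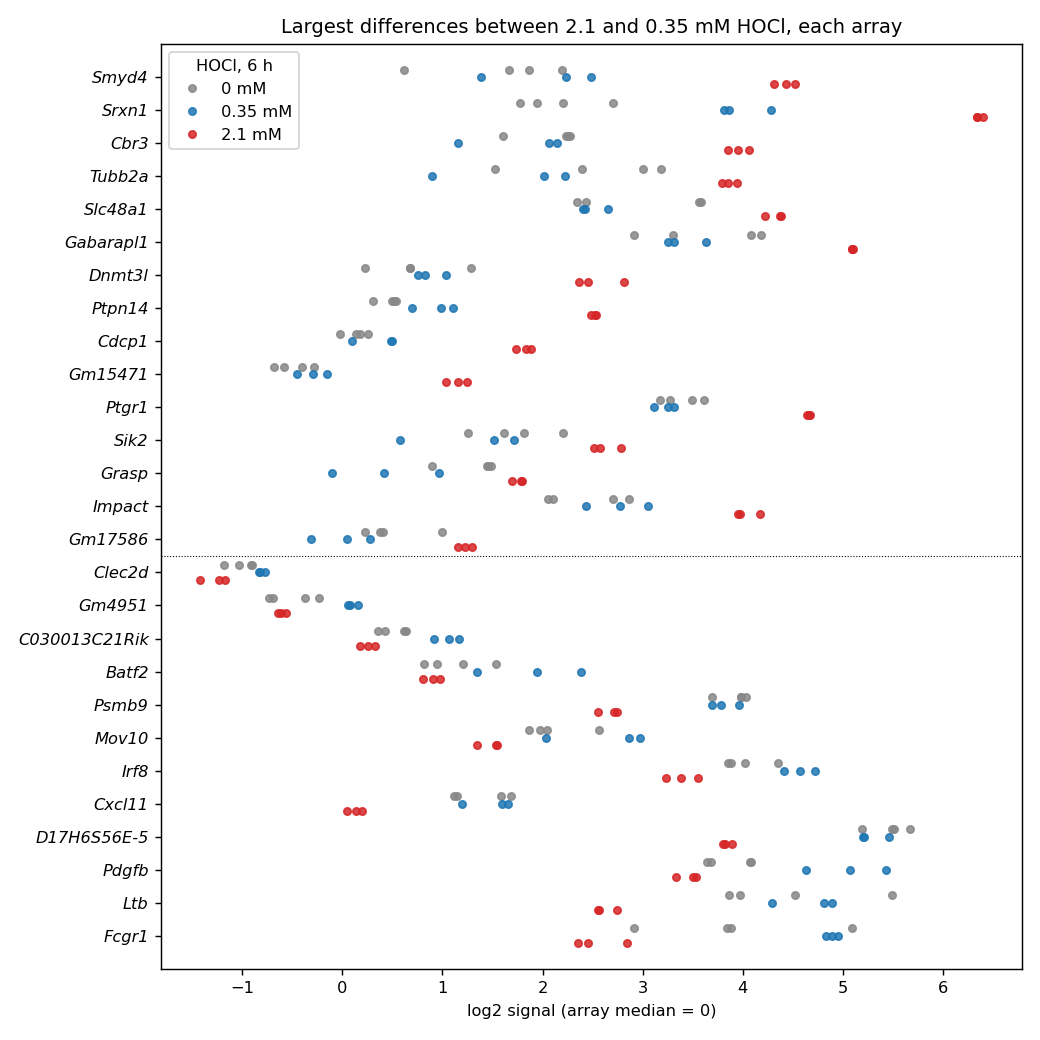
Log2 signal (x axis) of the 15 largest rises and the 12 falls called between 0.35 and 2.1 mM, 1 point per array at 0 mM (grey, n = 4), 0.35 mM (blue, n = 3) and 2.1 mM (red, n = 3). Above the dotted line all red points lie to the right of all blue ones, and below it to the left.

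Fcgr1, the high-affinity receptor for immunoglobulin G, had the largest fall among the called genes. Its level was 4.95, 4.84 and 4.89 at 0.35 mM and 2.84, 2.46 and 2.35 at 2.1 mM, while the arrays without HOCl spread from 2.91 to 5.09. The 2.1 mM arrays were below all others of these groups, and Fcgr1 fell 5.07-fold (log2 -2.34, SE 0.44, adjusted p = 0.0286), with both probe sets called. It was the 1 of 24 measured macrophage identity genes to be called, and the median of that group was -0.01. Without overlap 6 of the group were higher (25%) and 5 lower (20.8%), against 16.1% and 11.4% of all genes. Ltb, lymphotoxin beta, a membrane-bound member of the tumour necrosis factor family, stood at 4.89, 4.82 and 4.29 and then 2.75, 2.56 and 2.57. All the arrays without HOCl (3.86 to 5.49) lay above the 2.1 mM arrays, and Ltb fell 4.12-fold (adjusted p = 0.0234). Pdgfb, a platelet-derived growth factor chain, was at 5.43, 5.07 and 4.63 and then 3.53, 3.51 and 3.33. It was called higher at 0.35 mM than without HOCl (log2 1.17, adjusted p = 0.0293), and it fell 3.01-fold between the doses (adjusted p = 0.0432). Both comparisons use the same 0.35 mM arrays.

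Irf8, a transcription factor that sets the macrophage fate and acts with interferon signals, stood at 4.72, 4.41 and 4.58 at 0.35 mM and 3.56, 3.39 and 3.23 at 2.1 mM. Levels without HOCl (3.85 to 4.36) lay between the doses, and Irf8 fell 2.26-fold (adjusted p = 0.0414), with 1 of 2 probe sets called and the other at a difference of -1.04. Cxcl11, a chemokine induced by interferon, went from 1.65, 1.20 and 1.60 to 0.14, 0.20 and 0.04, a 2.56-fold fall (adjusted p = 0.0467). Its second probe set differed by 0.01, and the 2 probe sets thus disagree. Batf2, a transcription factor of activated macrophages, went from 1.95, 2.38 and 1.34 to 0.91, 0.81 and 0.98, a 1.99-fold fall (adjusted p = 0.0326). Against replicate 3 of 0.35 mM alone, Batf2 differed by -0.45. Mov10, an antiviral RNA helicase, fell 2.21-fold from 2.97, 2.87 and 2.03 to 1.54, 1.55 and 1.35 (adjusted p = 0.0414), and against replicate 3 alone by -0.55. Its second probe set differed by -0.19 and was not called. In Batf2 and Mov10 replicate 3 was the lowest 0.35 mM array and lay closest to the 2.1 mM arrays.

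D17H6S56E-5, a transcript of the major histocompatibility region, fell 2.73-fold, from 5.46, 5.20 and 5.21 to 3.89, 3.80 and 3.82 (adjusted p = 0.0215, both probe sets called). Its level without HOCl was 5.19 to 5.67, so only the 2.1 mM arrays stood apart. The smaller falls were those of the transcripts C030013C21Rik (1.74-fold) and Gm4951 (1.62-fold) and of Clec2d (1.38-fold), a C-type lectin at the dim end of the scale. C030013C21Rik and Gm4951 had been called higher at 0.35 mM than without HOCl, and at 2.1 mM they stood -0.26 and -0.10 from the level without HOCl. Their means at 0.35 and 2.1 mM were 1.05 and 0.25 for C030013C21Rik and 0.095 and -0.60 for Gm4951. The rise and the fall share the 0.35 mM arrays, so they are not separate results. In the fit over all doses, no called fall remained when any one array of either dose except replicate 3 of 0.35 mM was left out: limma without each of the other 5 called 0 probe sets lower, with 2863 to 7514 probe sets in either direction at an unadjusted p under 0.05. A fit of 5 arrays alone called 28 probe sets lower without replicate 1 of 0.35 mM and 874 without replicate 2.

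Interferon-stimulated genes, which carry out antiviral defence, were lower at 2.1 mM as a group while remaining above most arrays without HOCl. Of 32 measured, 30 were lower without overlap (11.4% of all genes were) and 1 was higher, and the median difference was -0.98. The test across all doses called 1 lower, Irf8. The fit of the 6 arrays alone called 20 of the 32 lower, where 0.83% of all genes were. Averaged over the group, the level above the 0 mM mean was 2.18, 1.92 and 2.13 at 0.35 mM and 1.10, 0.88 and 0.85 at 2.1 mM. The arrays without HOCl were at -0.42, -0.29, 1.01 and -0.31, so 1 of them reached the range of 2.1 mM. Among arrays of the high poly-A control level, with replicate 3 of 0.35 mM alone, the median was -1.08, without replicate 2 it was -1.06, and with the poly-A control level as a term over all doses it was -1.72.

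The spread of the interferon-stimulated genes differed between doses. The fit across doses takes its spread from all of them, and the median SD of these 32 genes was 1.46 at 0.7 mM and 1.39 at 1.4 mM, against 0.20 at 0.35 mM and 0.14 at 2.1 mM. Ifit1, an RNA-binding antiviral protein, stood at 5.70, 5.65 and 5.75 at 0.35 mM and at 4.08, 3.80 and 3.79 at 2.1 mM, a 3.50-fold difference with tight arrays, but at 1.86, -0.25 and 5.73 at 0.7 mM. Its adjusted p across doses was 0.462 with an SE of 1.31. With the poly-A control level as a term its difference was -3.48 in place of -1.81. Ifit2, of the same family, stood at 6.82, 6.42 and 6.84 and then 4.19, 3.79 and 3.74 (6.91-fold, adjusted p = 0.209). Mx1, a dynamin-like GTPase that blocks viral replication, stood at 2.91, 2.38 and 3.32 and then 0.34, -0.12 and 0.10 (6.76-fold, adjusted p = 0.0903), which is back within the range without HOCl (-0.34 to 2.07). Replicate 3 of 0 mM set the top of that range, and the other arrays without HOCl were at 0.10, -0.14 and -0.34. Irf7, a master regulator of interferon production, differed by -1.38 (adjusted p = 0.124). Irf9, at 0.30, was the 1 member above 0.

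Promoter windows of Ifit1 (RefSeq, GRCm38.p6, chr19:34640639-34640888, plus strand) and of D17H6S56E-5 (chr17:35000747-35000996, minus strand) are shown because both genes were lower at 2.1 mM and both hold an interferon element, here a pair of GAAA runs with 2 bases between them, in capitals. In Ifit1 it is read on the other strand, first base at -104 and -85 from the start, and in D17H6S56E-5 on the strand shown, at -87.
Ifit1: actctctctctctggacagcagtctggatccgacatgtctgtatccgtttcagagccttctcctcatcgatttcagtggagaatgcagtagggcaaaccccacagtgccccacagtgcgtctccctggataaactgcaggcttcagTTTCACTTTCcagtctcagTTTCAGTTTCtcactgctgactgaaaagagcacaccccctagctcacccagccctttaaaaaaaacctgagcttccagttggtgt
D17H6S56E-5: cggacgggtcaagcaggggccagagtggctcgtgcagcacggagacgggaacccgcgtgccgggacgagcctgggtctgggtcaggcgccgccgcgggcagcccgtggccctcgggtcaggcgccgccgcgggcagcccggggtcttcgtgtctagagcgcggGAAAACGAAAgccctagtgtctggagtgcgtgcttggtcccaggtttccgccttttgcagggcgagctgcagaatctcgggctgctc
On either strand this element was in the window of 11 of 25 interferon-stimulated genes that have one (44%), in 2 of 8 genes that fell, in 0 of 44 genes that rose, and in 3.46% of all genes. These matches describe letters in a window and not sites bound in these cells.

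Immunoproteasome genes, whose products cut and load peptides for antigen presentation, differed in direction from those of the standard proteasome. All 6 measured were lower at 2.1 mM without overlap, with a median of -0.80, and 1 fell. That was Psmb9, a catalytic subunit, at 3.96, 3.78 and 3.70 and then 2.74, 2.72 and 2.56 (2.21-fold, adjusted p = 0.0489), below the 3.69 to 4.03 of the arrays without HOCl. Tap1, a peptide transporter, stood at 3.65, 3.31 and 3.11 and then 2.17, 1.86 and 1.90 (adjusted p = 0.124). Its 4 probe sets differed by -1.38 to -0.20, and the one shown differed most. Psmb10, another catalytic subunit, differed by -0.80 (adjusted p = 0.237). Of 32 measured standard proteasome genes, 26 were higher without overlap (16.1% of all genes were) and 0 lower, with a median of 0.35. The median was 0.24 after quantile normalization and 0.18 with the poly-A control level as a term. None of the 32 was called at this setting, while 19 were higher at an unadjusted p under 0.05, as 10.1% of all genes were. Psmd7, a subunit of the regulatory cap, stood at 4.33, 4.28 and 4.57 and then 5.28, 5.19 and 5.10 (1.74-fold, adjusted p = 0.102). This was the highest difference of its 3 probe sets, the lowest being -0.03. Psma7, a core subunit, stood at 5.57, 5.47 and 6.01 and then 6.32, 6.33 and 6.20, and against replicate 3 alone it differed by 0.28 in place of 0.60. Psmd5, a chaperone of proteasome assembly outside the fixed list, rose 2.07-fold (adjusted p = 0.0466), from 4.20, 3.88 and 4.24 to 5.24, 5.15 and 5.08.

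**Figure D3:**
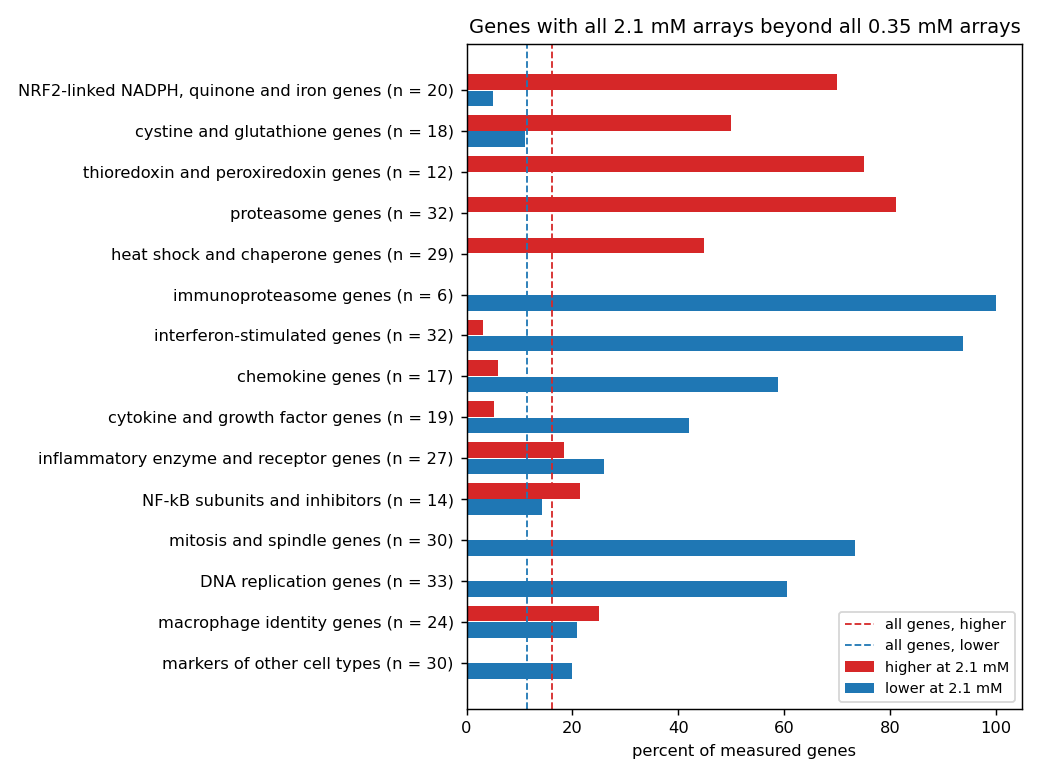
Percent of measured genes (x axis) in 15 gene lists with all 3 arrays of 2.1 mM above (red) or below (blue) all 3 of 0.35 mM, with n the number of measured genes. Dashed lines give the same shares over all genes, 16.1% higher and 11.4% lower, and the proteasome and immunoproteasome lists point opposite ways.

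Of 29 measured heat shock and chaperone genes, limma called 0, with 10 higher at an unadjusted p under 0.05 (10.1% of all genes were). Without overlap 13 were higher and 0 lower, against 16.1% and 11.4% of all genes. Their median was 0.20, 0.08 after quantile normalization, and 0.07 with the poly-A control level as a term. Hspa1b, an inducible HSP70, stood at 2.19, 1.17 and 2.70 and then 4.40, 4.50 and 4.28, a 5.17-fold difference (adjusted p = 0.0942). The 0.35 mM arrays lay mostly within the range without HOCl (1.73 to 3.83), where replicate 3 of 0 mM was the lowest. The probe set of its near-identical neighbour Hspa1a read -1.41, -1.54 and -1.47 and then -1.44, -1.39 and -1.40, at the dim end of the scale, and probes for the pair may share targets. Hspa4l, another HSP70 relative, stood at 4.03, 3.69 and 4.04 and then 5.43, 5.37 and 5.26 (adjusted p = 0.253), a difference of 1.44, or of 0.83 with the poly-A control level as a term. Hsp90aa1, Hsph1 and Bag3 differed by 0.57, 0.63 and 0.61, and Dnajb1, a usual partner of HSP70, by 0.20, with adjusted p from 0.172 to 0.704. The brightest probe set of Hsp90aa1 was not called, but 1 of its 5 was. The window of Hspa1b (RefSeq, GRCm38.p6, chr17:34959239-34959488, minus strand) is shown for the heat shock core GAANNTTC, in capitals, at -104 from the start.
Hspa1b: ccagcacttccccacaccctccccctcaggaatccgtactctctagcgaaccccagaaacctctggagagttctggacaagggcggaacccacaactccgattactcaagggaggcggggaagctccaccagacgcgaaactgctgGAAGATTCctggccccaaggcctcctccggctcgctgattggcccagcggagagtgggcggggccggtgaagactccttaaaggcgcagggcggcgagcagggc
GAANNTTC, which reads the same on both strands, was in 9 of 26 heat shock gene windows (34.6%), in 1 of 44 windows of genes that rose (2.27%) and in 7.73% of all genes.

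The 2 doses were chosen for comparison because inflammatory genes are high on every array of both, so their levels against the arrays without HOCl are a description. The mean of 17 measured chemokine genes was 1.77, 1.59 and 1.66 above the 0 mM mean at 0.35 mM and 1.07, 0.99 and 1.01 above it at 2.1 mM, while the arrays without HOCl lay from -0.03 to 0.02. For 19 cytokine and growth factor genes these means were 1.77, 1.55 and 1.60 and then 1.22, 1.17 and 1.14. For both groups every array of either dose lay above every array without HOCl. Both sets of means share the 0 mM arrays. The means of both groups were lower at 2.1 mM than at 0.35 mM, without overlap between the doses.

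Cxcl10, a chemokine for T cells that interferon induces, stood at 6.71, 6.50 and 6.46 and then 3.60, 3.43 and 3.24, an 8.76-fold difference (adjusted p = 0.169). Its 2.1 mM arrays lay within the range without HOCl (0.93 to 4.42) only because of replicate 3 of 0 mM. The other arrays without HOCl, at 2.08, 0.98 and 0.93, lay below all 2.1 mM arrays. Ccl2, which draws monocytes, stood at 7.06, 7.12 and 7.07 and then 5.68, 5.50 and 5.51, and Csf3, granulocyte colony-stimulating factor, at 7.17, 6.96 and 6.94 and then 5.98, 5.99 and 5.95. Both were far above the arrays without HOCl, whose highest values were 2.40 and -0.06, and neither differed past the threshold (adjusted p = 0.519 and 0.752). Their differences of -1.52 and -1.05 were -3.36 and -3.41 with the poly-A control level as a term. Tnf stood at 7.18, 6.97 and 6.90 and then 6.45, 6.32 and 6.39 (adjusted p = 0.696). Cxcl2, a neutrophil chemokine, was at 7.94, 7.75 and 8.25 and then 8.08, 7.90 and 8.08, and Ptgs2, cyclooxygenase 2, at 7.11, 6.70 and 7.33 and then 7.50, 7.20 and 7.34. In both the doses overlapped. Ccl3, the interleukin-1 receptor antagonist gene Il1rn and the signalling inhibitor Socs3 differed by 0.02, -0.03 and -0.10. Other probe sets of some of these genes differed more. The second probe set of Ptgs2 differed by 1.13, and the 3 of Socs3 ran from -0.70 to -0.10, with 0 called. The small differences of the brightest probe sets depended on the fit. With the poly-A control level as a term Cxcl2 differed by -1.63, Ptgs2 by -0.93, Ccl3 by -0.80, Il1rn by -1.73 and Socs3 by -1.49, none of them past the threshold (each adjusted p = 1.0), whereas among arrays of the high level alone the 5 lay between -0.45 and 0.02.

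Over the groups, 1 of 17 chemokine genes fell (Cxcl11) and 10 were lower and 1 higher without overlap (11.4% and 16.1% of all genes were), with a median of -0.30. For the 19 cytokine genes 0 were called (4 lower at an unadjusted p under 0.05, where 8.97% of all genes were) and 8 were lower and 1 higher, with a median of -0.47. For 27 inflammatory enzymes and receptors 0 were called (1 higher and 2 lower at an unadjusted p under 0.05), 7 were lower and 5 higher without overlap, and the median was -0.09. The 5 higher are 18.5% of that group, near the 16.1% of all genes. For 14 NF-kB subunits and inhibitors 0 were called (1 higher and 1 lower at that p), 2 were lower and 3 higher, and the median was -0.18. With the poly-A control level as a term the medians of the chemokine, cytokine, and enzyme and receptor groups were -0.84, -1.20 and -0.36. Nfkbia, the inhibitor that NF-kB itself induces, ran from 6.81 to 7.27 at 0.35 mM and from 7.02 to 7.09 at 2.1 mM, so its doses overlapped in this probe set. Its 5 probe sets differed by -0.65 to 0.03, and 0 were called. Acod1, which makes itaconate, stood at 7.94, 7.83 and 7.94 and then 7.18, 6.93 and 6.96 (adjusted p = 0.756), and Nos2, the inducible nitric oxide synthase, at 2.57, 1.93 and 1.59 and then 1.08, 0.94 and 0.88 (adjusted p = 0.201). The fit of the 6 arrays alone called 5 chemokine and 5 cytokine genes lower, where 0.83% of all genes were. The median SD of the chemokine genes was 1.02 at 0.7 mM and 0.67 at 1.4 mM, against 0.18 and 0.10 at 0.35 and 2.1 mM.

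**Figure D4:**
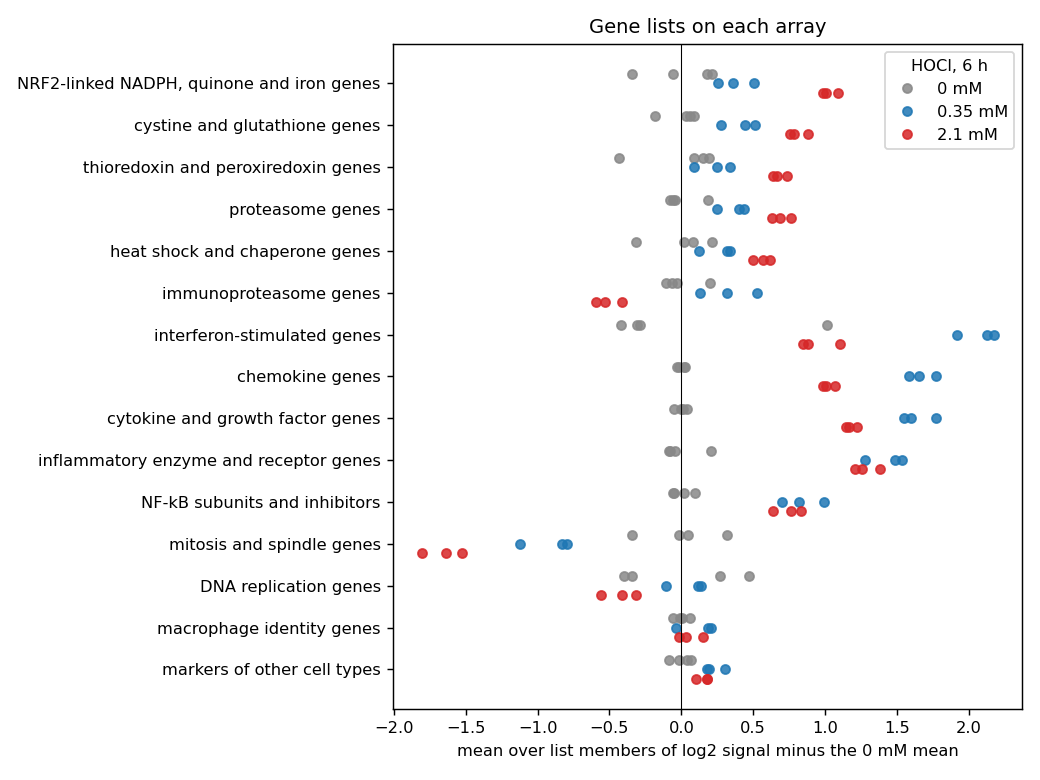
Mean over the measured members of 15 gene lists of the log2 signal minus the 0 mM mean (x axis), 1 point per array at 0 mM (grey, n = 4), 0.35 mM (blue, n = 3) and 2.1 mM (red, n = 3). Chemokine, cytokine and interferon-stimulated genes lie above 0 at both HOCl doses and lower at 2.1 mM than at 0.35 mM, while the antioxidant and proteasome lists lie highest at 2.1 mM.

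Genes of cell division stood lower at 2.1 mM. Of 30 measured mitosis and spindle genes, 22 were lower without overlap (11.4% of all genes were) and 0 higher, and the median was -0.87. The fit across doses called 0 of them, with 14 lower at an unadjusted p under 0.05 (8.97% of all genes were), and the fit of the 6 arrays called 13 lower (0.83% of all genes). Plk1, a kinase of mitotic entry, stood at 2.96, 2.69 and 2.39 at 0.35 mM and 1.45, 1.48 and 1.34 at 2.1 mM, against 3.54 to 4.40 without HOCl, so it was lower at each step (adjusted p = 0.216 between the HOCl doses). The difference of -1.25 was -0.64 with the poly-A control level as a term. Ccna2, cyclin A2, was at 4.79, 4.52 and 4.63, just below the 4.83 to 5.74 without HOCl, and at 3.46, 3.47 and 3.20 at 2.1 mM (adjusted p = 0.187). Cdk1, the kinase that drives mitosis, differed by -1.05 (adjusted p = 0.174). The mean of the group relative to the 0 mM mean was -0.83, -1.12 and -0.80 at 0.35 mM and -1.52, -1.64 and -1.80 at 2.1 mM.

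DNA replication genes differed less. Of 33 measured, 20 were lower without overlap (11.4% of all genes were) and 0 higher, the median was -0.41, and 0 were called, with 7 lower at an unadjusted p under 0.05 (8.97% of all genes). Rrm2, a subunit of ribonucleotide reductase, stood at 5.79, 5.66 and 6.16 and then 4.59, 4.70 and 4.41 (adjusted p = 0.25), and Tk1, thymidine kinase, at 3.78, 3.66 and 3.56 and then 2.38, 2.42 and 2.15 (adjusted p = 0.201). Both genes varied widely without HOCl, from 4.62 to 5.91 and from 3.43 to 4.76. Cdkn1a, the cell cycle inhibitor p21, differed by -0.29.

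Several stress programmes were close to level between the doses. The medians of 21 endoplasmic reticulum stress genes, 26 ATF4 stress genes and 28 hypoxia and glycolysis genes were 0.04, 0.03 and 0.01, with 0 called in each and 0 at an unadjusted p under 0.05, and those small medians changed sign in some alternatives. The stress factor Atf3 stood at 4.35, 3.84 and 4.05 and then 3.56, 3.42 and 3.34 (difference -0.64, adjusted p = 0.532), within the 2.70 to 5.25 of the arrays without HOCl. Ddit3, Chac1 and Trib3, which lie downstream of ATF4, differed by -0.15, -0.11 and 0.37. Of 33 measured immediate early and AP-1 genes 0 were called, with 1 higher and 0 lower at an unadjusted p under 0.05 (10.1% and 8.97% of all genes were). Without overlap 10 were higher and 3 lower (30.3% and 9.09%), against 16.1% and 11.4% of all genes, and the median was 0.16. Dusp1, a phosphatase that switches off MAP kinases, had the highest difference at 1.55 (adjusted p = 0.224). The growth-responsive factors Egr1 and Fos had the lowest, at -1.24 and -1.04 (adjusted p = 0.376 and 0.338), and Jun differed by -0.09. Actb, beta-actin, differed by -0.02.

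The 2 doses lay at different points of the course over all 8 doses. Srxn1 and Hmox1 had their highest mean at 2.1 mM, 6.36 (SD 0.04) and 7.57 (SD 0.11), and at 3.5 mM their means were 1.91 (SD 0.61) and 3.82 (SD 0.26), near those without HOCl (2.16 and 4.06). Cbr3 was highest at 1.4 mM, with a mean of 4.42 (SD 0.92). Fcgr1 and Ltb had their lowest means at 2.1 mM, 2.55 (SD 0.26) and 2.62 (SD 0.11), and at 3.5 mM stood at 4.63 (SD 0.02) and 4.26 (SD 0.23). Taldo1 had its lowest mean of all doses at 0.35 mM, 5.57 (SD 0.07), below the 6.06 (SD 0.05) of 0.14 mM and the 6.20 (SD 0.26) of 0.7 mM. These courses are descriptions, with no test over the doses.

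**Figure D5:**
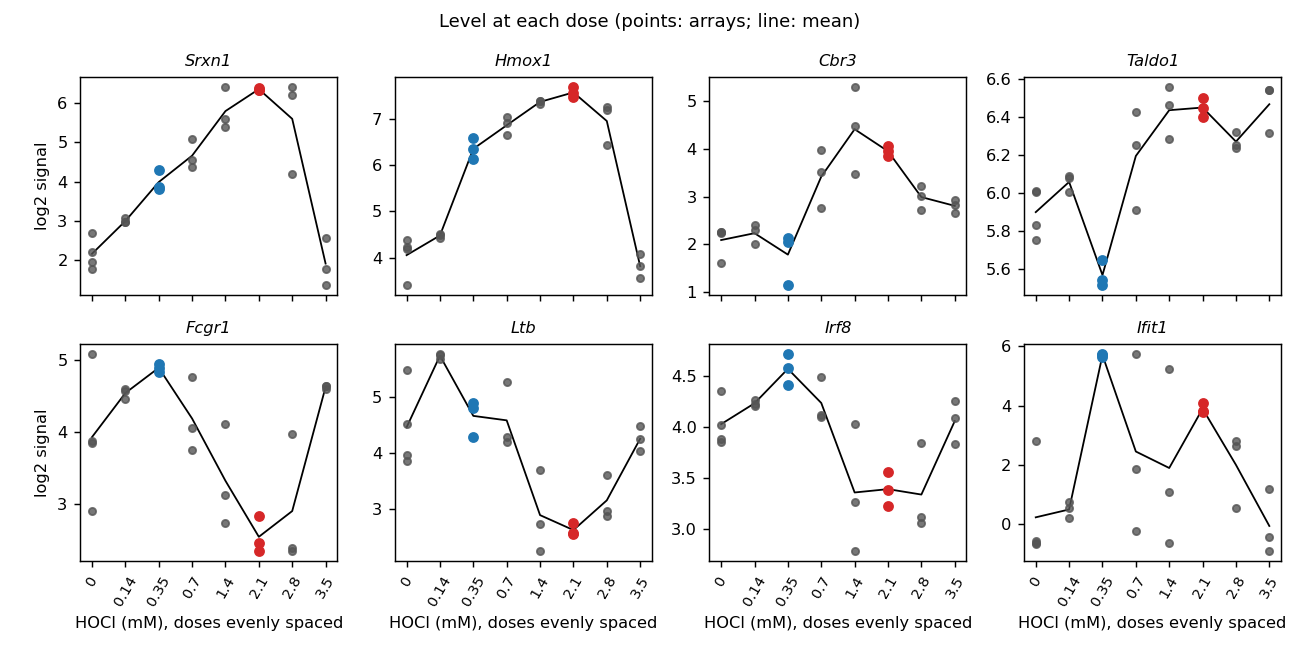
Log2 signal (y axis) at each HOCl dose (x axis, doses evenly spaced, 6 h) for 8 genes, 1 point per array with 0.35 mM in blue and 2.1 mM in red, and a line through the means. Srxn1 and Hmox1 have their highest mean at 2.1 mM and Fcgr1 and Ltb their lowest, and the Ifit1 arrays at 0.7 mM lie from -0.25 to 5.73.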

How the data were processed

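The deposited table holds 1 value per probe set and array for 25 arrays. Per the submitters' processing notes the values come from RMA, and per the design text intensities were extracted from CEL files with Array Assist. The deposited values were taken as log2, the scale RMA returns, and each array spans 10.8 to 11.0 units; the base itself is not stated. Each deposited array has a median of 0 and the upper quartiles differ, so the authors' final scaling is not a quantile normalisation, and what else was done is not given in the sources used here.

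Left out were the 64 control probe sets of 45101. Symbols came from the platform annotation: 34945 probe sets had 1 symbol, 932 several and 9160 none. The fit (limma 3.58.1, R 4.3.3) gave each dose its own mean, with all 25 arrays sharing the spread over 17 residual degrees of freedom, and p-values were two-sided and adjusted over 45037 probe sets. The number of arrays limits the precision. On simulated data with 50 changed probe sets per size, the fit called 30% at 1.5-fold, 72% at 2-fold, 96% at 4-fold and 100% at 8-fold, with 8 false calls. The simulated noise was normal and independent, with 1 spread per probe set at all doses. The real spread differed between doses, at a median SD of 0.190 at 0.35 mM and 0.106 at 2.1 mM, and single arrays stood apart. These shares and false calls thus do not describe the real comparison, where Cxcl10 (8.76-fold) and Hspa1b (5.17-fold) were not called.

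Named genes were the 15 largest rises and 15 largest falls (12 existed) called without overlap of arrays, up to 3 called members of each of 30 gene lists and a set of fixed genes, 60 in all; 30 more were chosen after their values were seen. Members, lists and genes were chosen with earlier results of these data known. Of 720 list genes 663 were measured. Motifs were searched on both strands of the 250 bases before each start in RefSeq windows for 27025 genes. Alternatives tried were quantile normalisation, a filter on dim probe sets, another variance prior, the 6 arrays alone, array weights, a replicate block, the poly-A control level, 1 probe set per gene, the most variable probe set and each array left out. Residuals of same-numbered arrays correlated at 0.288, 0.0277 and -0.332, and those of other-numbered arrays at -0.408 to 0.412. With 3 arrays a dose this cannot decide whether the replicate numbers pair the arrays.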

Additional observations from a re-analysis of the deposited data

Results flagged for a closer look

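Among the arrays without HOCl, 1 array stood far from the other 3 in 4 of 60 named genes, where chance alone marks about 1 in 20. In replicate 3 Cbr3 was at 1.61 against 2.23 to 2.27, Grasp at 0.89 against 1.45 to 1.49, and Ifit1 at 2.81 against -0.68 to -0.58. In replicate 1 Psmb9 was at 3.69 against 3.98 to 4.03. In some gene lists the arrays without HOCl also divided into pairs, replicates 1 and 3 against 2 and 4. Relative to the 0 mM mean, the ATF4 stress genes averaged -0.46 and -0.37 against 0.45 and 0.38. Such a split widens both the range without HOCl and the common spread. These arrays do not enter the difference between 2.1 and 0.35 mM other than through the common spread.

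The poly-A control probe sets, which belong to RNA added at labelling and to no mouse gene, had a mean of 2.15 over the 3 arrays of 2.1 mM and of 1.75 in replicate 3 of 0.35 mM, above the 0.74 to 1.12 of the arrays without HOCl. All arrays of 1.4, 2.8 and 3.5 mM were high too (1.83 to 2.33), all of 0.14 mM were low, and 0.7 mM was split (0.96, 1.06 and 2.22). Dose and this level are therefore largely confounded over the series. The part of the poly-A controls in the results between the doses was not tested beyond the fits with that level as a term or within the high level.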

How the results depend on the processing

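The 117 rises and 20 falls among probe sets depended on the arrays and on the spread used, while all 137 kept their sign under each alternative that measured them. With no overlap between the doses, leaving out or weighting arrays could not reverse a sign. Rises and falls numbered 58 and 27 after quantile normalization (68.2% of calls higher against 85.4%), 160 and 16 without dim probe sets, 82 and 20 with a trended and robust prior, and 69 and 14 with 1 probe set per gene. The 6 arrays alone gave 311 and 221. Array weights gave 12086 and 10918, in a fit that did not converge and weighted replicate 1 of 0.35 mM at 95.6, and gene-by-gene weights, chosen after seeing the data, gave 5114 and 3854. The poly-A control level as a term left 4 and 2, and arrays of its high level alone 0 and 0 (limma, 1256 at an unadjusted p under 0.05). The replicate block left 33 and 2, although it is not known whether the replicate numbers pair the arrays. Leaving out 1 array in turn gave 4 to 2062 rises and 0 to 1452 falls, the highest without replicate 3 of 0.35 mM. Within 5 arrays, also chosen after seeing the data, leaving out replicates 1, 2 and 3 of 0.35 mM gave 51 and 28, 1267 and 874, and 4042 and 2011. The cause of these differences was not tested. Of the 30 called genes named by rule, 2 stayed called with the poly-A term, 9 with the block and 24 in the 6 arrays. Medians of 19 of 30 gene lists kept their sign throughout; the other 11 were all within 0.14 of 0. The spread of the 0.35 mM arrays and the dim end of the scale, where no detection call was used, limit what 3 arrays a dose can show.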

Other observations

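Genes of respiration and protein synthesis were more often higher than lower at 2.1 mM without overlap, and none passed the test. At an unadjusted p under 0.05, 10.1% of all genes were higher and 8.97% lower. Of 34 measured oxidative phosphorylation genes limma called 0 (6 higher at that p). Without overlap 16 were higher (47.1%) and 0 lower, against 16.1% and 11.4% of all genes, and the median was 0.16. Of 26 cytosolic ribosomal protein genes 0 were called, and the 2 higher at that p are not above the share of all genes. Without overlap 10 were higher (38.5%) and 0 lower, and the median was 0.11. After quantile normalization the medians of the oxidative phosphorylation and ribosomal protein genes were 0.08 and 0.04. With dim probe sets left out, the median of all probe sets was 0.09. Of 19 p53 target genes 0 were called (3 higher and 2 lower at that p), and the median was 0.23. Without overlap 8 were higher (42.1%) and 2 lower (10.5%, near the share of all genes), while Cdkn1a, the best known of them, differed by -0.29. Of 11 histone genes 0 were called (2 higher at that p), 5 were higher and 0 lower, with a median of 0.28. Replicate 2 of 0.35 mM had the lowest mean of the 0.35 mM arrays in each of these 4 groups. The same was true of the 3 antioxidant groups, the standard proteasome genes and the heat shock and chaperone genes.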
